A study of Mus musculus with 18 samples.

Results

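The VEGF and angiopoietin pathway genes described here are 10 genes chosen by name: Vegfa, Vegfc, Flt1, Kdr, Flt4, Nrp1, Angpt1, Angpt2, Tek and Tie1. They were measured by 12 of the 55681 probes of the array, since Vegfa and Kdr each had 2 probes, and they are 10 of the 20660 genes that could be named. Lung RNA of 18 male Muta™Mouse animals, aged about 12 weeks, was compared. The mice were dosed by gavage on each of 28 days with olive oil alone (vehicle, n = 5) or with a mixture of 4 polycyclic aromatic hydrocarbons (PAHs) in olive oil, the 4PAH-Mix (benzo[a]pyrene, benz[a]anthracene, benzo[b]fluoranthene and chrysene). The doses were 12.5 (low, n = 4), 25 (medium, n = 5) and 50 (high, n = 4) mg BaP equivalents/kg-bw/day, where BaP stands for benzo[a]pyrene, and lungs were taken 72 h after the last dose. The Muta™Mouse carries a bacterial reporter transgene for scoring mutations, which vehicle and dosed animals share. The comparison asks whether genes of the angiogenic pathway differed in lung between mice given the mixture and mice given its vehicle.

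Each mouse had 1 array, on which Cy5-labelled lung RNA was hybridized against Cy3-labelled reference RNA pooled from 11 mouse cell lines. A value below is the log2 ratio of lung to reference RNA, so that 1 unit is a doubling, and a difference between groups is a log2 fold change. A gene was called where limma's Benjamini-Hochberg adjusted p was 0.05 or less and the fold change at least 1.5. The lung signal of all 12 probes was well above background on all 18 arrays, and none was saturated. The reference signal was above background on 2 arrays for Flt4, on 14 for Tek and on all 18 for the other 10 probes. Median Cy5 intensity was between 110 and 142 per array, and 51.5% to 61.1% of all probes were well above background. The arrays lay on 3 slides, each with mice of all 4 groups, but each dose group kept to its own columns of a slide, so that column and dose cannot be told apart. The sections of frozen lung taken for RNA were random, and in such whole-tissue RNA fewer cells of a type and less RNA per cell cannot be told apart.

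The VEGF family controls the growth, survival and permeability of blood and lymphatic vessels. VEGFA, which in lung comes largely from the alveolar epithelium, acts on endothelial cells through KDR (VEGFR2), while FLT1 (VEGFR1) binds the same ligand tightly and can act as a decoy, and NRP1 is a co-receptor. VEGFC acts mainly on FLT4 (VEGFR3), the receptor of the lymphatic endothelium. The angiopoietins form a further system on the endothelium: ANGPT1 activates the receptor TEK (TIE2) and keeps vessels quiet, ANGPT2 is a context-dependent antagonist of it, and TIE1 is a partner receptor of TEK. PAHs activate the aryl hydrocarbon receptor (AHR), whose partner ARNT also pairs with the hypoxia-inducible factors that drive VEGFA.

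The promoters of Vegfa and Vegfc, the VEGF ligands among the 10 genes, are shown because AHR and hypoxia-inducible factors bind DNA through short core sequences that can be looked for. RefSeq gave 250 bases before the start (GRCm38.p6) for 8 of the 10 genes, in 9 windows; Angpt1 and Angpt2 are named only. The letters GCGTG, taken as the AHR core, were present on either strand in 4 of the 9 windows. ACGTG, the only form of the hypoxia core that was looked for, was present in 1. Among 32851 promoter windows of the same length, 28.2% held GCGTG and 16.6% held ACGTG. The windows of the main Vegfa start and of Vegfc held neither. Those of Flt1 and Nrp1 held 1 GCGTG each and lie inside the spans annotated for these genes. A second Vegfa start, inside the gene, held 1 of each core. Kdr held GCGTG at 2 places, 131 and 89 bases before its start, in a window that also lies inside the gene's annotated span. All 4 windows with GCGTG thus lie inside annotated genes, and that of Tek, which held neither core, lies partly inside. The lines below give the Vegfa and Vegfc windows and both Kdr sites with 10 bases on either side, 5′ to 3′ on the strand of the gene, with core letters in capitals.
Vegfa, chr17:46032378-46032627, minus strand: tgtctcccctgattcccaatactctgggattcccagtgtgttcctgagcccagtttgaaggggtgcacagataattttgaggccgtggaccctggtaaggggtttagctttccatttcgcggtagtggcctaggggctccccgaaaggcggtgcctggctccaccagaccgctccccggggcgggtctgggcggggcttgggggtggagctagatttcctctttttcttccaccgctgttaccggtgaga
Vegfc, chr8:54077282-54077531, plus strand: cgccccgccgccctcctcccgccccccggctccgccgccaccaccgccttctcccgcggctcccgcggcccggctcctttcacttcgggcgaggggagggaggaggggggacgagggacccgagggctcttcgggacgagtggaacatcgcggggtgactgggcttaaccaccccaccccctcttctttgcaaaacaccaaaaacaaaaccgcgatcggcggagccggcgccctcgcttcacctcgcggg
Kdr, first site, chr5:75978572-75978596, minus strand: gggggagtggGCGTGggaaaccggg
Kdr, second site, chr5:75978530-75978554, minus strand: ccagtgggggGCGTGgccggacgca
A match of these letters is a description of the sequence, and binding was not measured.

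None of the 10 genes was called at any dose. At the low dose 0 of 10 were called, where 0.16% of all named genes were; at the medium dose 0 of 10, against 0.934%; at the high dose 0 of 10, against 1.51%; and between the high and the low dose 0 of 10, against 0.0823%. With limma's p unadjusted, 1, 1 and 4 of the 10 were under 0.05 in order of dose, and 1 between the high and the low dose. Of all named genes, 9.26%, 19.7%, 20% and 7.12% were under it in the same order. The largest fold change of any of the 12 probes was 1.31, 1.27 and 1.40 in order of dose. The median log2 fold change of the 10 genes was 0.06, -0.03 and 0.09 in order of dose, while that of all genes was 0.01, 0.02 and 0.02. At the high dose the genes lay on both sides of the vehicle, 6 higher and 4 lower, between -0.38 for Kdr and 0.49 for Vegfc.

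Across the dose steps, limma's trend was called with no limit on the fold. It was called for 1 of the 10 genes, Kdr, against 7.74% of all named genes. This rests on A_55_P2094469, the probe that stands for Kdr, which fell with dose. On the other Kdr probe, A_51_P316553, the trend was -0.05 per step (adjusted p = 0.618, limma). By probe the trend was called for 2 of 12, 1 each of Vegfa and Kdr and both downward, against 5.77% of all probes. The same 2 probes were the ones past the adjusted p at the high dose when the fold was not limited, which 4.18% of all probes were.

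**Figure D1:**
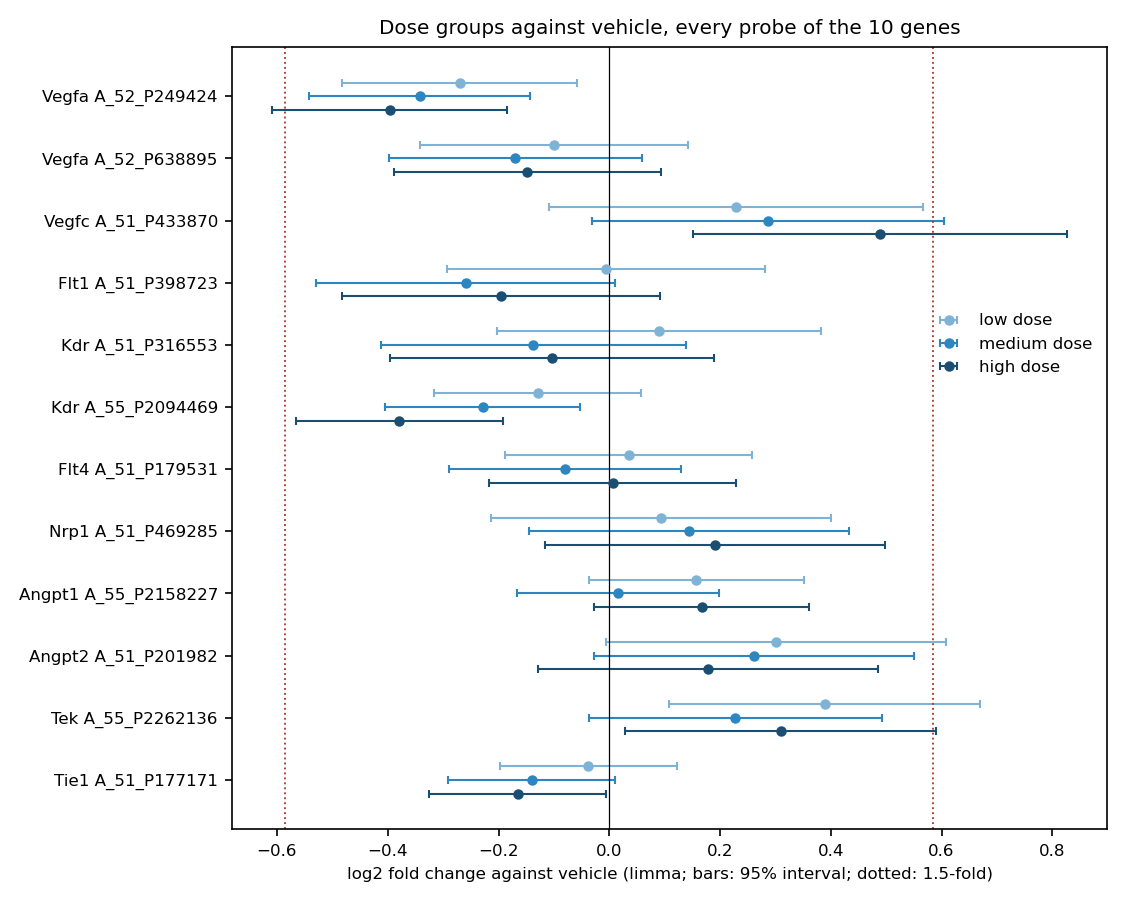
Log2 fold change against vehicle (x axis) for each of the 12 probes of the 10 genes (y axis) at the low, medium and high dose, from limma, with bars for the 95% interval and dotted lines at 1.5-fold. All points lie inside the dotted lines, and at the high dose the intervals of Vegfa A_52_P249424, Kdr A_55_P2094469 and Tie1 lie below 0 and those of Vegfc and Tek above it.

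Vegfa, the main growth factor of the pathway, was higher in lung than in the reference. Its probes gave normalized ratios of lung to reference of 18.1 and 4.43 in vehicle mice. On probe A_52_P249424 the vehicle mice had 4.33, 3.93, 4.03, 4.21 and 4.40. The low-dose mice had 3.94, 3.88, 3.92 and 3.89, the medium-dose mice 3.63, 3.95, 3.84, 3.66 and 4.09, and the high-dose mice 3.67, 3.86, 3.84 and 3.75. All 4 high-dose mice lay below each vehicle mouse, as did 3 of 4 low-dose and 3 of 5 medium-dose mice. Against vehicle it differed by -0.27 (SE 0.10, adjusted p = 0.459), -0.34 (SE 0.10, adjusted p = 0.0508) and -0.40 (SE 0.10, adjusted p = 0.028) from low to high dose by limma, the last a 1.32-fold decrease. The fall was -0.13 per dose step (SE 0.03, adjusted p = 0.0154, limma). Without vehicle mouse 1, 4 or 5 or high-dose mouse 16, 17 or 20 the adjusted p at the high dose was over 0.05, and without vehicle mouse 1 or 5 that of the trend was too (0.0509 and 0.0502, limma). Within the 3 slides the high-dose difference was -0.36, -0.28 and -0.64. With arrays centred on their median in place of loess, the high-dose value was -0.12 and the adjusted p of the limma trend was 0.929. With scale normalization between arrays the high-dose value was -0.16 (adjusted p = 0.568, limma) and the trend had an adjusted p of 0.578. Fitted on the deposited table of normalized ratios, the high-dose value was -0.35 (adjusted p = 0.0566, limma), and the trend passed (adjusted p = 0.0327).

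The other Vegfa probe, A_52_P638895, which was printed at 2 spots, showed a smaller difference. The vehicle mice had 2.32, 2.17, 1.95, 2.20 and 2.09, and the high-dose mice 2.09, 2.10, 1.86 and 1.95. The low-dose mice ranged from 1.78 to 2.21 and the medium-dose mice from 1.71 to 2.33, so that the groups overlapped. Its log2 fold change was -0.10, -0.17 and -0.15 from low to high dose, with a 95% interval of -0.39 to 0.09 at the high dose (adjusted p = 0.62, limma), and its sign turned to 0.10 with median centring. This probe stands for Vegfa in the gene counts, since its mean log2 intensity over both channels was the higher. The 2 probes are annotated to different RefSeq transcripts of Vegfa, NM_001025257 and NM_001025250, and whether they read different transcripts was not tested.

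Whether the 2 Vegfa probes differed from each other was tested directly. The difference between them averaged 2.03 in the vehicle and 1.78 in the high-dose mice. That change of -0.25 did not pass a two-sided exact permutation test over the mice (p = 0.0794, 0.127 adjusted over 2 such tests), in which 126 splits allow no p under 0.00794. The fall on 1 probe is therefore not shown to be particular to it.

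Vegfc, the lymphatic growth factor, had the widest difference of the 10 genes, and it did not pass the test. On A_51_P433870 the vehicle mice had 0.63, 0.92, 0.80, 1.05 and 0.90, and the high-dose mice 1.28, 1.30, 1.65 and 1.17. The low-dose mice had 1.36, 0.87, 1.45 and 0.67, and the medium-dose mice 1.53, 1.40, 1.17, 0.77 and 0.87. Each of the 4 high-dose mice was above the highest vehicle mouse, whereas the low and medium doses held both high and low mice, with 2 of 4 and 3 of 5 above. From low to high dose its log2 fold change was 0.23, 0.29 and 0.49. At the high dose the SE was 0.16, the 95% interval 0.15 to 0.83 and the adjusted p 0.103 by limma. The trend was 0.15 per step (adjusted p = 0.0705, limma). Within the slides the high-dose difference was 0.51, 0.72 and 0.27. The trend passed when the slide was a block, when only probes above background entered, and with scale normalization between arrays, and also without low-dose mouse 9 (adjusted p = 0.0425, limma) or medium-dose mouse 14 (0.0415).

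**Figure D2:**
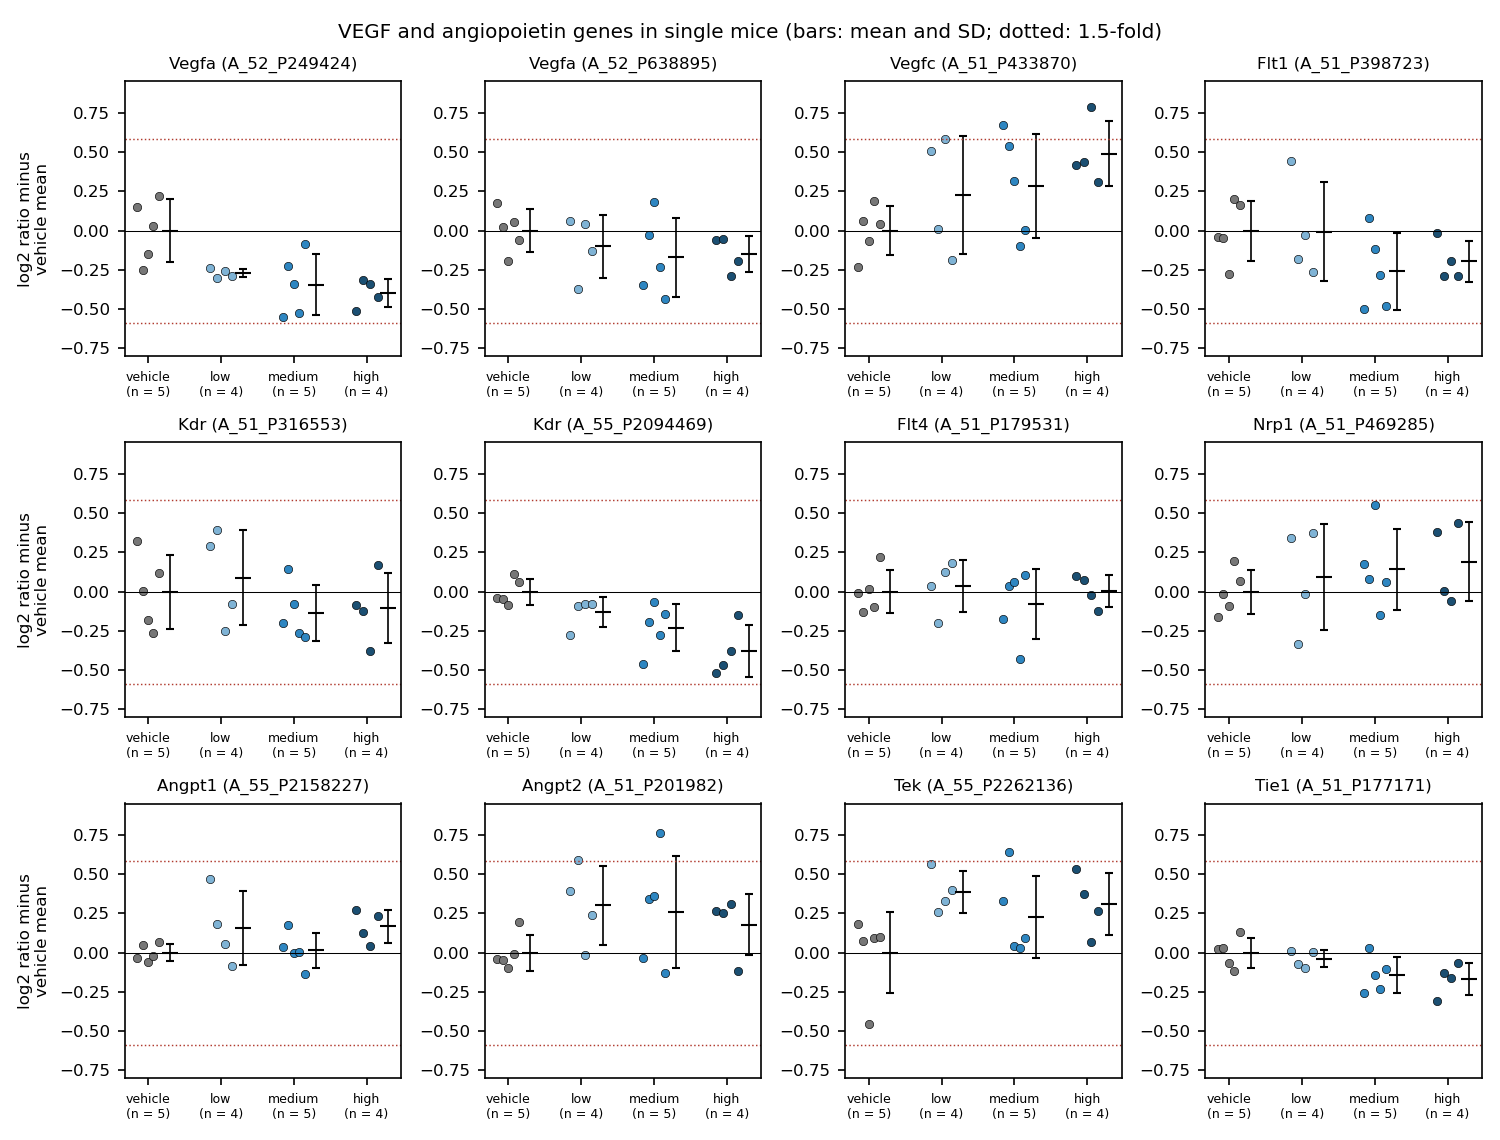
Log2 ratio of lung to reference RNA minus the mean of the vehicle mice (y axis) for each probe, with 1 point per mouse, bars for the mean and SD of each dose group (x axis), and dotted lines at 1.5-fold. The 4 high-dose mice lie below all vehicle mice for Vegfa A_52_P249424 and Kdr A_55_P2094469 and above them for Vegfc, and groups overlap at the high dose on the other probes.

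Of the VEGF receptors, Flt1 showed no difference past the test. Its normalized ratio of lung to reference was 21.5 in vehicle mice. The values of A_51_P398723 ran from 4.15 to 4.62 in vehicle, 4.16 to 4.87 in low-dose, 3.93 to 4.51 in medium-dose and 4.14 to 4.41 in high-dose mice. The dose groups differed from vehicle by -0.01, -0.26 and -0.20 (adjusted p = 0.563 at the high dose, limma), with the sign turned to 0.05 by median centring and to 0.06 by scale normalization.

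Kdr, the main signalling receptor for VEGFA on blood endothelium, was read by probes of unlike contrast with the reference. On A_51_P316553, printed at 10 spots, the normalized ratio of lung to reference was 80.0 in vehicle mice. Spots of an array differed by an SD of 0.087 to 0.196. The vehicle mice had 6.64, 6.33, 6.14, 6.06 and 6.44, and the high-dose mice 6.24, 6.20, 5.95 and 6.50. The low-dose range was 6.07 to 6.72 and the medium-dose range 6.03 to 6.47, so that all groups overlapped. Differences from vehicle were 0.09, -0.14 and -0.10 from low to high dose, with a 95% interval of -0.40 to 0.19 at the high dose (adjusted p = 0.816, limma). The sign at the high dose turned to 0.25 with scale normalization and to 0.09 with median centring.

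The second Kdr probe, A_55_P2094469, fell with dose. Its normalized ratio of lung to reference was 1.73 in vehicle mice. Over all arrays, before normalization, the geometric mean intensity was 2558 in lung against 1701 in the reference. The vehicle mice had 0.75, 0.75, 0.70, 0.90 and 0.85, the low-dose mice 0.52, 0.70, 0.71 and 0.72, the medium-dose mice 0.33, 0.60, 0.72, 0.51 and 0.65, and the high-dose mice 0.27, 0.32, 0.41 and 0.64. All 4 high-dose and 4 of 5 medium-dose mice lay below each vehicle mouse, and 2 of 4 low-dose mice did. This made a log2 fold change of -0.13, -0.23 and -0.38 from low to high dose. At the high dose its SE was 0.09 and its adjusted p 0.0168 by limma, with a 1.30-fold decrease, though without high-dose mouse 16 or 17 that p was 0.0817 and 0.068. The trend was -0.12 per step (SE 0.03, adjusted p = 0.00647, limma), and the high dose differed from the low by -0.25 (adjusted p = 0.615, limma). Within the slides the high-dose difference was -0.45, -0.39 and -0.21. With median centring the high-dose value was -0.14 and the trend -0.05 per step (adjusted p = 0.917, limma). From the Cy5 channel alone they were -0.36 and -0.12, close to the values above, with adjusted p = 0.0999 and 0.0528 by limma.

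The 2 Kdr probes carry the same transcript accession, NM_010612, yet their ratios lay 5.53 log2 units apart in vehicle mice and 5.81 in high-dose mice. That change of 0.28 was within what a two-sided exact permutation test over mice allows (p = 0.127, 0.127 adjusted over 2 tests). Which of the probes follows the Kdr transcript more closely was not tested. The second probe stood for the gene because its mean log2 intensity over both channels was higher, and in Cy5 alone the first was the brighter, with geometric means over the arrays of 9375 against 2558.

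**Figure D3:**
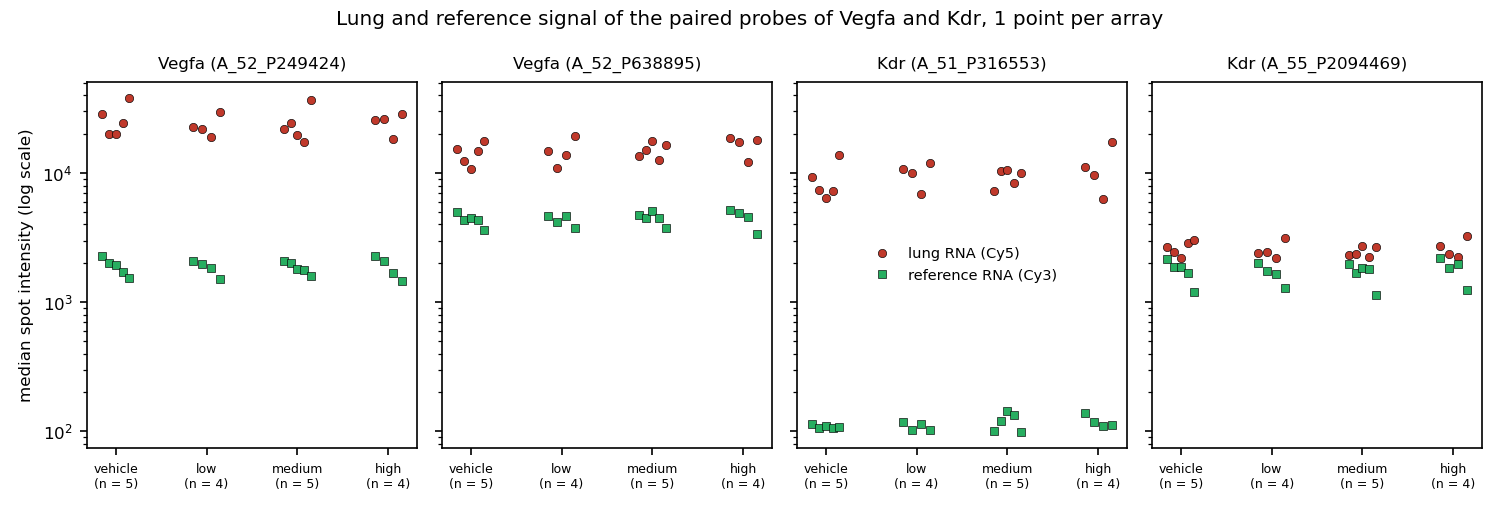
Median spot intensity on a log scale (y axis) of lung RNA (Cy5, circles) and reference RNA (Cy3, squares) for the paired probes of Vegfa and Kdr, with 1 point per array in each dose group (x axis). Lung and reference are far apart on Kdr A_51_P316553 and close together on Kdr A_55_P2094469.

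Flt4, the receptor for VEGFC, had a low signal, with a lung intensity of 149 against 66.3 for the reference. The values of A_51_P179531 ran from 0.52 to 0.87 in vehicle and 0.53 to 0.75 in high-dose mice. Its log2 fold change was 0.03, -0.08 and 0.01 from low to high dose, with a 95% interval of -0.22 to 0.23 at the high dose (adjusted p = 0.989, limma). The sign at the high dose turned with the slide as a block and when single mice were left out. With the scanner software's ratios, which are corrected for background, the value was 0.42 (adjusted p = 0.628, limma). With the reference signal above background on 2 of 18 arrays, the ratios of this probe rest mostly on the lung channel.

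Nrp1, the co-receptor, ran from 1.21 to 1.57 in vehicle mice and 1.31 to 1.81 in high-dose mice on A_51_P469285. The spread within the low dose, 1.04 to 1.75, was wider than the differences between groups. It differed from vehicle by 0.09, 0.14 and 0.19 from low to high dose (adjusted p = 0.612 at the high dose, limma).

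The angiopoietin ligands lay above the vehicle mean at each dose, and neither passed the test. Angpt1, the TEK agonist, was the most even of the probes in vehicle mice, at 2.46 ± 0.05 (SD, n = 5), and was 2.63 ± 0.10 (SD, n = 4) in high-dose mice. Of the high-dose mice, 3 of 4 lay above each vehicle mouse. Dose groups differed from vehicle by 0.16, 0.02 and 0.17, with a 95% interval of -0.03 to 0.36 at the high dose (adjusted p = 0.418, limma).

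Angpt2, which destabilizes vessels when VEGFA is low, had 1.65, 1.65, 1.60, 1.69 and 1.89 in the vehicle mice. The low-dose mice had 2.09, 2.28, 1.68 and 1.94, the medium-dose mice 1.66, 2.04, 2.05, 2.46 and 1.56, and the high-dose mice 1.96, 1.95, 2.00 and 1.58. In each dose group 3 mice lay above each vehicle mouse, while 1 or 2 lay within or below the vehicle range. The log2 fold change was 0.30, 0.26 and 0.18 in order of dose (adjusted p = 0.633 at the low and 0.642 at the high dose, limma). Within the slides the high-dose difference was 0.30, 0.36 and -0.31. The Angpt2 ratio minus the Angpt1 ratio, set to 0 in vehicle mice where its SD was 0.08, came to 0.14 ± 0.25, 0.25 ± 0.33 and 0.01 ± 0.26 in order of dose (SD over 4, 5 and 4 mice), so that its spread was larger than its shift.

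Tek, the angiopoietin receptor, had a normalized ratio of lung to reference of 20.2 in vehicle mice. Its reference intensity was low, with a geometric mean of 79.5, within the range of the arrays' median Cy3 intensities (75 to 89). The vehicle mice had 4.52, 4.42, 3.88, 4.43 and 4.44 on A_55_P2262136, and the low-dose mice 4.90, 4.59, 4.67 and 4.74. The medium-dose mice had 4.67, 4.98, 4.38, 4.36 and 4.43, and the high-dose mice 4.87, 4.71, 4.40 and 4.60. The 4 low-dose mice and 3 of the 4 high-dose mice exceeded every vehicle mouse, and 1 vehicle mouse was far below the rest. Relative to vehicle, Tek differed by 0.39 at the low dose (SE 0.13, 95% interval 0.11 to 0.67, adjusted p = 0.387, limma). The medium and high doses differed by 0.23 and 0.31 (adjusted p = 0.427 and 0.253, limma), so that the low dose had the largest value. The high-dose value was 0.20 without vehicle mouse 3. With scale normalization between arrays it was 0.57, past the adjusted p (0.0493, limma) but under the fold limit. With the scanner software's ratios, which are corrected for background, it was 0.25 (adjusted p = 0.799, limma).

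Tie1, the partner receptor, ran from 3.01 to 3.25 in vehicle, 3.03 to 3.14 in low-dose, 2.87 to 3.16 in medium-dose and 2.82 to 3.06 in high-dose mice. At either of the higher doses, 3 mice lay below each vehicle mouse. Its differences from vehicle were -0.04, -0.14 and -0.17 from low to high dose (adjusted p = 0.293 at the high dose, limma), and the sign at the high dose turned with median centring (0.02), scale normalization (0.01) and the Cy5 channel alone (0.13). Ratios of Tek and Tie1 thus lay on opposite sides of the vehicle mean at each dose by loess, with no difference past the test for either.

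Of the genes whose ratios ran most like those of the 10 across the 18 arrays, among 13443 genes, Kdr A_51_P316553 was nearest to Wfdc2 and Cldn5 (Pearson r = 0.89 and 0.88), the latter the tight junction claudin of endothelium. The other Kdr probe was nearest to Rapsn (0.89) and Trp53 (0.87), so that the paired probes had different neighbours. Vegfa A_52_P249424 was nearest to Rab7 (0.91) and Sh3pxd2a (0.87), and A_52_P638895 to Bcr (0.90) and Ncoa5 (0.89). Vegfc was nearest to Nsg1 (0.85) and Klhl5 (0.83), Flt1 to Acvr2b and 9930021J03Rik (0.86 each), and Flt4 to Scube1 (0.76) and Nr2c2 (0.74). Nrp1 was nearest to Znrf2 (0.80) and Tbc1d2b (0.79), Angpt1 to Cpeb1 (0.87) and Jmjd1c (0.85), and Angpt2 to Ilkap (0.77) and Nrf1 (0.73). Tek was nearest to Kazn (0.89) and Art3 (0.86), and Tie1 to H2-Eb1 (0.89) and Fbxl20 (0.80). Ratios of an array share its RNA, its reference and its normalization, and these r are given as a description.

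Around the 10 genes, 5 lists of the wider pathway were read in the same fit. No gene was called at the low dose. At either higher dose 0 to 2 genes of a list were, beside 0.934% (medium) and 1.51% (high) of all named genes. Of 12 other ligands and receptors, 1 rose at the high dose: Sema3c, a class 3 semaphorin that signals through neuropilins, with a log2 fold change of 0.94 (adjusted p = 0.000784, limma) and 0.74 on its other probe, also called. The list's median was 0.01, and its lowest member was Angpt4 at -0.14. Of 29 genes of VEGF and TIE2 signal transduction, none was called at the high dose and 1 at the medium dose, where the transcription factor Nfatc1 fell by 0.61 (adjusted p = 0.00343, limma); it was -0.55 at the high dose, under the fold limit, and 0.02 there on its other probe. The highest of that list at the high dose was the adaptor Gab1 at 0.24, and its median was 0.00. Of 18 genes that endothelium induces or uses in response to VEGF, none was called, with values between -0.46 for the apelin receptor Aplnr and 0.50 for the potassium channel subunit Kcne3 and a median of 0.07. Without vehicle mouse 5, 1 of the 18 was called, and without vehicle mouse 3 or high-dose mouse 20 Nfatc1 was called at the high dose (-0.59 and -0.60).

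Among 23 hypoxia-inducible factors and targets, the vasodilator peptide Adm fell at the high dose by 1.04 (adjusted p = 0.00807, limma). At the medium dose the glycolytic regulator Pfkfb3 rose by 0.68 (adjusted p = 0.000943, limma), with 0.14 on its other probe. Members of this list went both ways, with a median of 0.04 at the high dose. Among 30 other angiogenic factors and inhibitors, the sialomucin Cd34 rose at the high dose by 0.74 (adjusted p = 0.00695, limma) and the receptor Notch1 fell by 0.69 (adjusted p = 0.0195, limma), with 0.53 and -0.10 on their other probes, that of Notch1 being dim. The median of this list was -0.10. Notch1 was not called without vehicle mouse 1 (-0.62) or high-dose mouse 18 (-0.64) or mouse 20 (-0.61). Of 12 alternatives with all mice, Notch1 was not called in 3. With median centring none of these pathway genes was called at the high dose. By trend, 1 of 12, 1 of 29, 1 of 18, 4 of 23 and 6 of 30 genes of the lists were called by limma, beside 7.74% of all genes. Those of the lists past the trend but not called at a dose, named after their values were seen, were Rcan1 (0.10 per step), Ndrg1 (0.14) and Notch4 (0.13) upward, and Met (-0.17), Thbs1 (-0.22) and Vash1 (-0.19) downward.

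**Figure D4:**
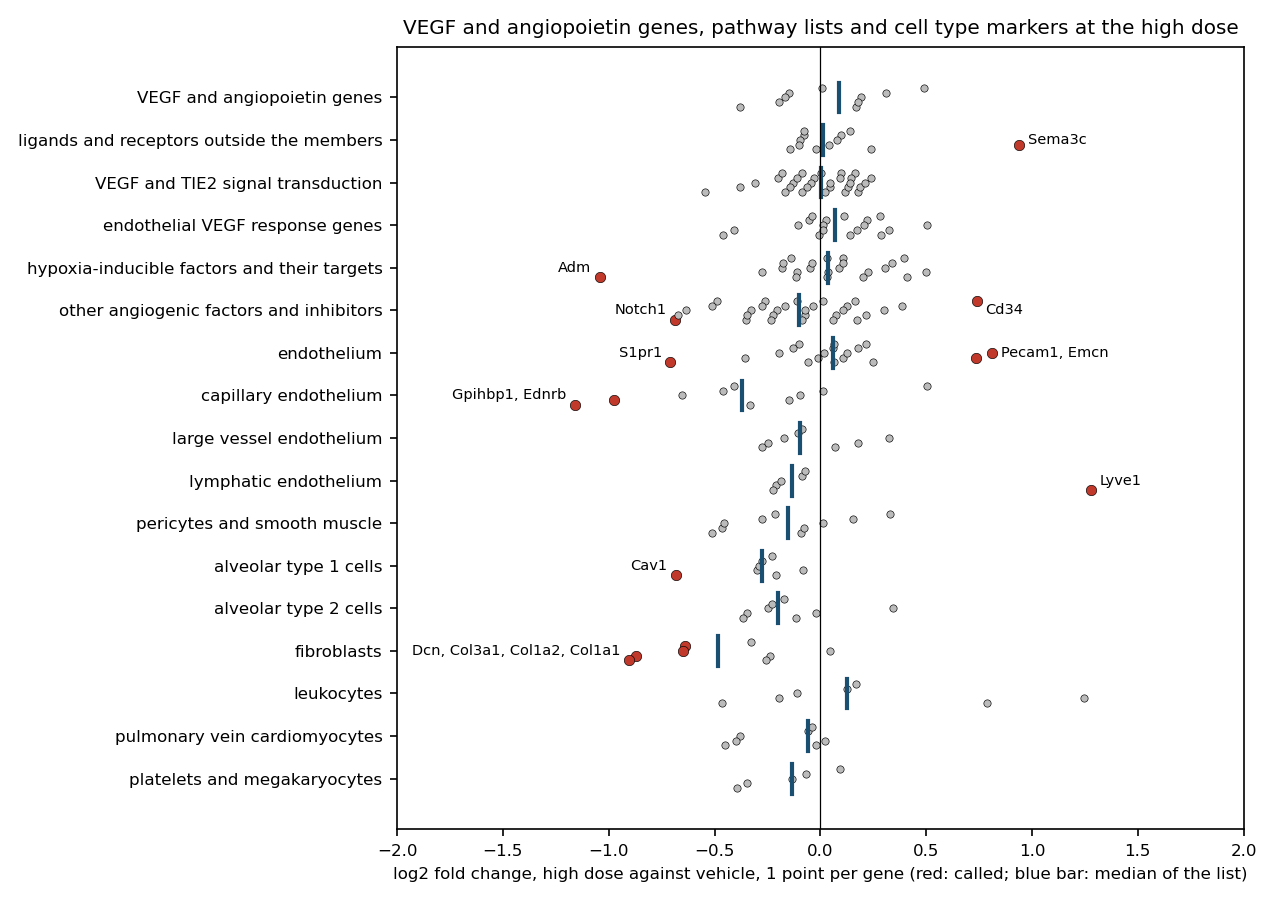
Log2 fold change at the high dose against vehicle (x axis) for each gene, 1 gene of the hypoxia list left out, in rows for the 10 VEGF and angiopoietin genes, the 5 pathway lists and the 11 cell type marker lists, with blue bars for medians and red points, named, for called genes. The 10 genes lie between -0.38 and 0.49 with none called, and the fibroblast and capillary rows lie mostly below 0.

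Markers of the cells that carry or make these proteins were read beside them, and counts of called markers stand against the 1.51% of all named genes called at the high dose. The measured markers of alveolar type 1 and type 2 cells and of endothelium were above background in each group, as a lung label calls for. Of 18 endothelial markers, Pecam1 (0.74, adjusted p = 0.000597) and Emcn (0.81, adjusted p = 0.000323) rose at the high dose and S1pr1 (-0.71, adjusted p = 0.000126) fell, by limma, with a median of 0.06. The mean of the endothelial list per mouse, relative to the vehicle mean, ran from -0.25 to 0.12 in vehicle and from -0.05 to 0.10 in high-dose mice. Of 10 markers of capillary endothelium, Gpihbp1 (-1.16, adjusted p = 0.000131) and Ednrb (-0.98, adjusted p = 0.00297) fell by limma, 2 of 10 lay above 0 and the median was -0.37. Their mean per mouse ran from -0.23 to 0.16 in vehicle and from -0.55 to -0.24 in high-dose mice, ranges that nearly touch. None of 8 large vessel markers was called, and of 6 measured lymphatic markers Lyve1 rose by 1.28 (adjusted p = 0.00515, limma) while the others lay between -0.23 and -0.07. Prox1, the defining transcription factor of lymphatic endothelium, was not above background in 2 of the 4 groups.

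Markers of neighbouring cells were read in the same way. Of 8 fibroblast markers, Col1a1 (-0.64), Col1a2 (-0.65), Col3a1 (-0.87) and Dcn (-0.90) fell at the high dose (adjusted p = 0.0152 to 0.0262, limma), and the list mean per mouse ran from -0.11 to 0.11 in vehicle and from -0.78 to -0.22 in high-dose mice. The fibroblast count was 1 without vehicle mouse 3 and 0 without high-dose mouse 16 or 18. With median centring Lyve1 was the only marker still called, scale normalization ended the calls of Gpihbp1, S1pr1 and Cav1, and the scanner software's ratios those of Ednrb and Lyve1. Among fibroblast markers, Col1a2 was not called in 4 of 12 alternatives with all mice, Col1a1 in 3, Dcn in 2 and Col3a1 in 1. Of 7 measured markers of alveolar type 1 cells, a source of VEGFA, Cav1 fell by 0.68 (adjusted p = 0.000101, limma), none lay above 0 and the mean per mouse was -0.37 to -0.21 at the high dose against -0.17 to 0.12 in vehicle. None of 10 pericyte and smooth muscle, 8 alveolar type 2, 7 leukocyte, 7 cardiomyocyte and 5 platelet markers was called at the high dose, although 1 leukocyte marker was without vehicle mouse 3 and 2 of pericytes and smooth muscle without vehicle mouse 4. The cardiomyocyte mean, which pulmonary vein muscle carries, varied widely within groups, from -1.38 to 1.09 in vehicle and -1.35 to 1.06 in high-dose mice. High-dose falls of Vegfa A_52_P249424 and Kdr A_55_P2094469 came with capillary, alveolar type 1 and fibroblast list means below the vehicle range. At the low dose, capillary means ran from -0.25 to 0.20, against -0.23 to 0.16 in vehicle. Within the high-dose group, this Kdr probe and the capillary mean did not rank alike. Relative to the vehicle mean, mouse 16 had -0.52 and -0.26, and mouse 20 had -0.15 and -0.44. The mean of the wider endothelial list stayed within the vehicle range in the high-dose mice. Alveolar type 2 marker means overlapped the vehicle range there, at -0.37 to 0.08 against -0.09 to 0.06. Of these 8 markers, 1 lay above 0 at the high dose, and the median was -0.20. Fibroblast markers did not fall step by step with dose, with list medians of -0.48, -0.63 and -0.48 from low to high dose. The part of these cells in the result was not tested.

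**Figure D5:**
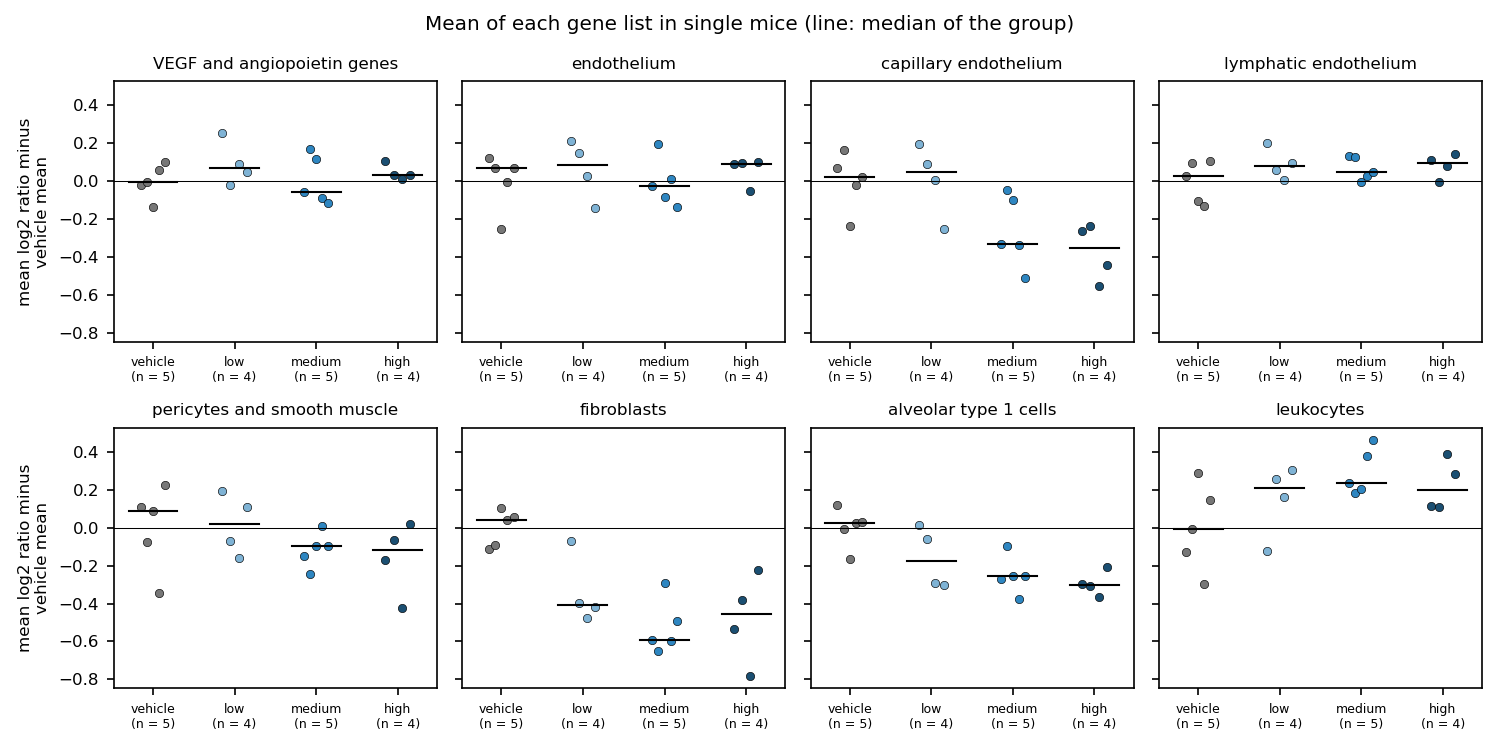
Mean log2 ratio of a gene list minus its mean in vehicle mice (y axis), 1 point per mouse with a line at the group median, for the 10 VEGF and angiopoietin genes and 7 marker lists by dose group (x axis). The means of the 10 genes at the high dose, 0.01 to 0.11, lie within the vehicle range apart from 1 mouse, while those of capillary, alveolar type 1 and fibroblast markers lie below it.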

How the data were processed

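The authors deposited, for each array, scanner output from Feature Extraction 11.0.1.1 (per the file headers), with the median signal intensity of each spot in Cy5 and Cy3 as read. The deposited output also gives log10 ratios (Cy5 to Cy3) that the software had corrected for background and dye. A further table deposited by the authors holds normalized log2 ratios, which ran with the same array at r = 0.995 to 0.998 and in the direction of Cy5 over Cy3, with column medians of -0.032 to -0.019; how it was centred is not given in the sources used here.

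Log2 ratios were computed from the median intensities without background subtraction and normalized by loess within arrays (R 4.3.3, limma 3.58.1). Outlier spots, 215 to 307 per array, and control spots had weight 0, and spots of a probe were averaged. The 4 groups were fitted together and p-values adjusted over 55681 probes. The study used MAANOVA, for which limma stands in. The dose trend used steps of 0 to 3. Symbols came from a RefSeq table, which named 27235 probes, and a gene was read on the probe whose log2 intensity, averaged over both channels, was highest.

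The 10 genes, the lists and the tests were chosen with earlier results of these data known. Genes named outside the 10 were list members called at a dose, the highest and lowest of each pathway list at the high dose, called markers, and the 2 genes nearest each probe by Pearson r. 1 gene of the hypoxia list is not reported here and is left out of the plot of the lists, though list counts and medians include it. The mice of a group are separate animals. The number of arrays limits precision. The fit was tested on simulated data. Alternatives were normexp correction (offset 50), ratios of the scanner software, the table of the authors, centring on the median, scale normalization, Aquantile normalization (which leaves ratios as they are), Cy5 alone, the compared groups alone, the dose in mg for the trend, the slide as a block, probes above background only, no fold limit, the mean of a gene's probes, leaving out each mouse and, added after the values were seen, the probe brightest in Cy5.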

Additional observations from a re-analysis of the deposited data

Results flagged for a closer look

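In 3 of 48 group and probe combinations tested, 1 mouse lay apart from the rest of its group by Dixon's test, which chance does in about 5% of groups. All 3 were the lowest mouse of their group. On Tek A_55_P2262136, vehicle mouse 3 had 3.88, while the other vehicle mice had 4.42 to 4.52, and without it the high-dose value was 0.20 in place of 0.31. On Angpt2 A_51_P201982, high-dose mouse 20 had 1.58, while the other high-dose mice had 1.95 to 2.00. On Kdr A_55_P2094469, low-dose mouse 6 had 0.52, while the other low-dose mice had 0.70 to 0.72.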

How the results depend on the processing

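Of the 10 genes, 0 were called in each comparison of doses under all alternatives run, single mice left out included, with 1 exception: without the fold limit 1 gene, Kdr, passed at the high dose. The number of genes with a dose trend was 1. It was 2 with the scanner software's ratios (Kdr, Tie1), with the slide as a block (Vegfc, Kdr) and with probes above background only (Vegfc, Kdr), 3 with scale normalization (Vegfc, Kdr, Tek), and 0 with median centring, with Cy5 alone and with the mean of a gene's probes. Leaving out single mice gave 1 to 2, and the probe brightest in Cy5, added after the values were seen, gave 1, which was Vegfa in place of Kdr. Signs at the high dose turned with median centring (Vegfa 0.10, Flt1 0.045, Tie1 0.016, and Kdr A_51_P316553, the probe that does not stand for the gene, 0.090), with scale normalization (Flt1 0.060, Tie1 0.0095 and that Kdr probe 0.25), with Cy5 alone (Tie1 0.13), with the slide as a block (Flt4 -0.0028) and, for Flt4, when single mice were left out (-0.027 to 0.061). The cause was not tested. Median centring called 80 probes at the high dose and 127 by trend, in place of 670 and 3215.

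With the scanner software's ratios Ednrb (-0.48) and Lyve1 (0.70) were not called, and with scale normalization Gpihbp1, S1pr1 and Cav1 were not. Calls of fibroblast markers also depended on the processing, with Col1a2 not called in 4 of 12 alternatives with all mice. No paired analysis was possible because the groups share no replicate numbers in the labels. Signal over background limits Flt4 most.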
